A study of Mus musculus with 24 samples.

Results

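The genes described here are 45 genes of the G2/M transition and mitosis, among 55335 genes measured in bulk RNA of transplanted mouse tumours. The members were genes named by their function in cell division and matched by symbol to the mm10 annotation, and all 45 were found. The choice follows no threshold on a value, but it was made with earlier results of these data known. The tumours grew from MC38, a mouse colon carcinoma line, or from B16, a mouse melanoma line. The tumour cells were Chek2 knock-out (KO) or parental CHEK2-WT (WT), and the mice were given anti-PD-1, an antibody against an inhibitory receptor on T cells, or PBS, its vehicle.

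Each line therefore had 4 groups of 3 libraries: KO with anti-PD-1, WT with anti-PD-1, KO with PBS and WT with PBS, 24 libraries in all. The labels tie the Chek2 change to the tumour cells and name none in the host mice; they give neither the host strain nor its age, do not say whether the KO cells were 1 clone, and do not say that replicates came from separate mice. The p-values below measure the spread between these libraries, which may be partly technical. The values are FPKM, fragments per kilobase of transcript scaled to the mapped fragments of the library, a level per transcript length. In bulk tissue, fewer cycling cells and less RNA per cycling cell cannot be told apart.

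Cells enter mitosis when cyclin B and the kinase CDK1 are freed from inhibitory phosphorylation by CDC25 phosphatases. The genes of this programme are switched on late in the cycle by B-MYB with the MuvB core and by FOXM1, and are held down in resting cells by the DREAM complex, which shares that core. The MuvB core binds the cell cycle genes homology region (CHR) of their promoters, often beside CCAAT boxes bound by NF-Y. CHK2, the product of Chek2, is a kinase activated by ATM after DNA breaks, and one of its targets is p53, which raises the CDK inhibitor p21 (Cdkn1a). In tumours the same transcripts serve as a measure of proliferation.

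The promoters of 5 members on which the results turn are shown because this regulatory context is shared by most of the set. Each runs 5′ to 3′ on the gene's own strand over 250 bases before and 50 bases after the annotated start, from RefSeq on GRCm38.p6, the same assembly as mm10. Capitals mark CHR-type hexamers (TTTGAA or TTCGAA, both strands) and CCAAT boxes (CCAAT, both strands). The windows are those of Cdk1 at chr10:69352863-69353162 (minus strand), Ncapg at chr5:45669675-45669974 (plus strand), Mki67 at chr7:135716330-135716629 (minus strand), Cenpf at chr1:189688037-189688336 (minus strand) and Ube2c at chr2:164769679-164769978 (plus strand).
Cdk1: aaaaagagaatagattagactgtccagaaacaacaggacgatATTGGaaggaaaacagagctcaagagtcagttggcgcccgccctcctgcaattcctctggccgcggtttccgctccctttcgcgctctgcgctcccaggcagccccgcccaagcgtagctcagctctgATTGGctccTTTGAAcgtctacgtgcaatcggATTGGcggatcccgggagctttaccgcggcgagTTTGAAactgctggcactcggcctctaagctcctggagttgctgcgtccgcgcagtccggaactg
Ncapg: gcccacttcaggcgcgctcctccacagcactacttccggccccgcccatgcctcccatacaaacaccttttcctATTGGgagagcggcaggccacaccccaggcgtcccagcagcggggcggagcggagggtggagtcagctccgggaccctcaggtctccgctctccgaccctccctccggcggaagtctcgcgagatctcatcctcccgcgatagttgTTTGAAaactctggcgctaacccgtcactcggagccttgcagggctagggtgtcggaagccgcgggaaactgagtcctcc
Mki67: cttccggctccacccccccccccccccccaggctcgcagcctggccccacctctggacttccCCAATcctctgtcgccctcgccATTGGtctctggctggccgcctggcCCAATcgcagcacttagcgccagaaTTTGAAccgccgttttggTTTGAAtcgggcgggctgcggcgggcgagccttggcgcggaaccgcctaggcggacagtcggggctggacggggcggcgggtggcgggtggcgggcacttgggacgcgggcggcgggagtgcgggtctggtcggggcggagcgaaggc
Cenpf: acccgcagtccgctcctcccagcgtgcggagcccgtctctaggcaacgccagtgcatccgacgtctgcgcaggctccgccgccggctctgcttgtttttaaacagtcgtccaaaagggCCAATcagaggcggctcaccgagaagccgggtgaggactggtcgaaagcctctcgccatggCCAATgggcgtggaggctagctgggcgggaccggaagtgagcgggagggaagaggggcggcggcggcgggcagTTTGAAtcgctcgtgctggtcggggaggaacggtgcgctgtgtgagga
Ube2c: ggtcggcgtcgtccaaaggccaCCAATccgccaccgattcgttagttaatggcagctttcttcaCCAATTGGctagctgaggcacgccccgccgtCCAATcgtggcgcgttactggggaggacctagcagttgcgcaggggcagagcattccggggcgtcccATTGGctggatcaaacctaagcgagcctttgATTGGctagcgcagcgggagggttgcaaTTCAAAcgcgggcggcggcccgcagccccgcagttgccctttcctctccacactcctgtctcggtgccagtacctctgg

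The Cdk1 window held 2 CHR-type hexamers and 3 CCAAT boxes. The Mki67 window also held 2 and 3, while Ube2c had 1 hexamer beside 6 boxes, 2 of which overlap. Entries were found for 37 of the 45 members, with 40 windows of 300 bases among them. A CHR-type hexamer was present in 32 of the 40 windows, against 19.2% of 32851 windows of the same length over 27025 mouse genes. A CCAAT box was present in 30 of the 40 windows, against 37.4% of all windows, and both motifs in 28 of the 40, against 7.52%. Neither motif was found in the windows of Mad2l1, Mybl2, Birc5, Nuf2, Ncaph and Nusap1. A match is a run of letters and does not show that a factor binds there.

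A gene was tested in a line where 3 or more of that line's 12 libraries reached 1 FPKM, and all 45 members passed this filter in both lines. FPKM sums were 375193 to 398474 in the B16 KO anti-PD-1 libraries and 310868 to 344059 in the other 21. Depth, estimated from the steps between low values, ran from 13250000 to 23840000 fragments. Over 10 melanocyte markers the values summed to 5136 to 6592 FPKM in B16 libraries and to 1.01 to 4.05 in MC38 libraries. Epithelial markers were low in MC38, at 1.76 to 48.8 FPKM summed over 10 genes, so the files do not mark these tumours as epithelial.

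Chek2 (ENSMUSG00000029521) was lower in KO tumours of both lines. In MC38 it had 2.2, 2.4 and 1.92 FPKM in the KO PBS libraries and 6.14, 5.15 and 4.61 in WT PBS, and 3.23, 3.06 and 3.37 in KO anti-PD-1 against 5.72, 5.59 and 5.01 in WT anti-PD-1. In B16 it had 5.68, 5.64 and 5.67 FPKM in KO PBS and 7.7, 7.93 and 7.17 in WT PBS, and 6.5, 6 and 6.75 in KO anti-PD-1 against 7.52, 9.29 and 7.87 in WT anti-PD-1. Within each line and treatment, KO and WT libraries did not overlap. In B16 under anti-PD-1, 31.5% of all genes were likewise lower in KO without overlap, and 25.9% were called lower. Within MC38 KO tumours Chek2 was called higher under anti-PD-1 than under PBS (log2 difference 0.41, adjusted p = 0.0255), against 6.12% of all genes. The test passed in MC38 under PBS (adjusted p = 0.000178) and anti-PD-1 (adjusted p = 0.00375) and in B16 under anti-PD-1 (log2 difference -0.31, adjusted p = 0.0154), but not in B16 under PBS (-0.37, adjusted p = 0.106). Gene-level values do not show an edit within the transcript.

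Top2a, the topoisomerase that untangles sister chromatids, had the highest mean FPKM in every group but B16 KO anti-PD-1, where Ccnb2 (cyclin B2) led with 51.1 ± 4.9 (SD, n = 3). The lowest mean in the 4 MC38 groups was that of Cdc25c, one of the phosphatases that activate CDK1, at 4.63 to 5.46 FPKM. Between WT PBS tumours of the lines, the MC38 mean over the B16 mean was 1.82 for Mybl2 (B-MYB), 1.67 for Smc2 (a condensin subunit) and 1.61 for Anln (anillin of the contractile ring). It was 0.588 for Cenpa, the centromeric histone H3, and 0.593 for Ccnb2. The lines were not tested against each other for level.

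**Figure D1:**
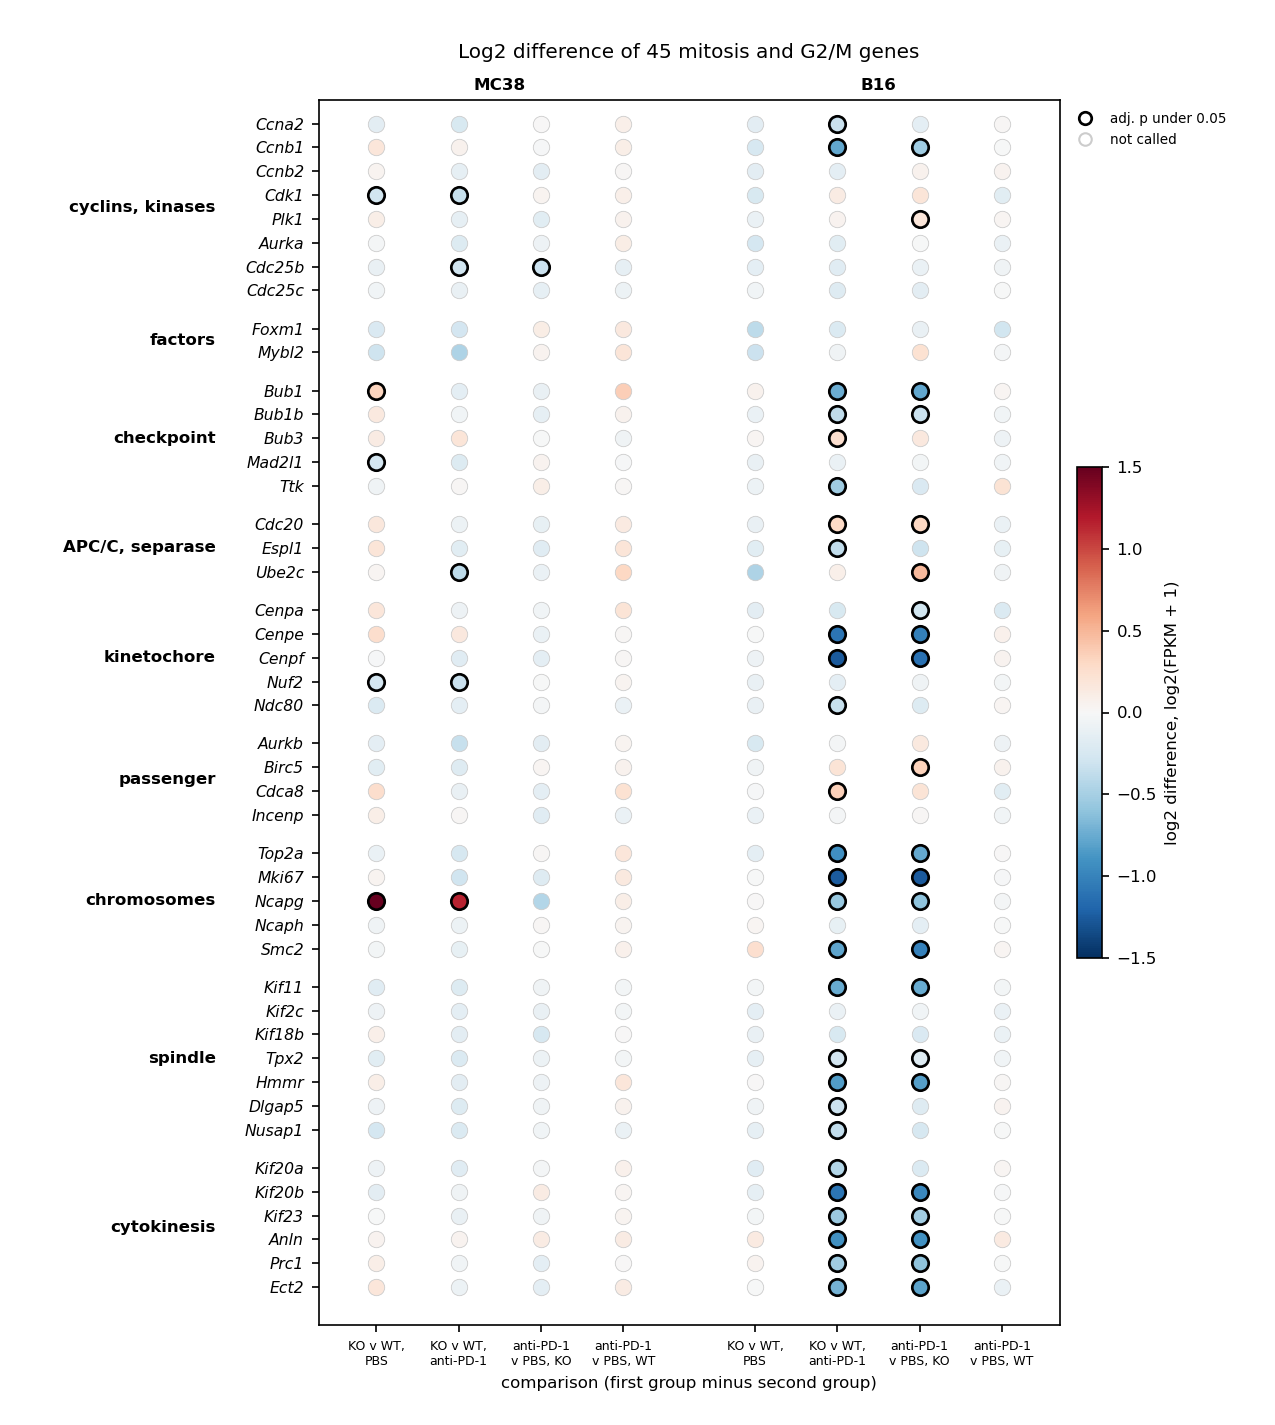
Log2 difference on log2(FPKM + 1) of each of the 45 members (rows, by role) in 4 comparisons of MC38 and 4 of B16 tumours (columns, first group minus second), as colour from blue (lower) to red (higher), with a black ring where limma's adjusted p was under 0.05. MC38 columns are pale apart from Ncapg, at 1.68 and 1.15 for KO over WT, while the B16 KO anti-PD-1 columns hold most rings, with values from -1.26 for Cenpf to 0.36 for Cdca8 against WT.

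In MC38 tumours few of the members differed between KO and WT, with Ncapg, a condensin gene, higher in KO under both treatments, and Cdk1 and Nuf2 lower. Under PBS 5 of 45 members passed the test, 2 higher and 3 lower, while 23.4% of all 14209 genes tested did, 11.9% higher and 11.6% lower. Under anti-PD-1 again 5 passed, 1 higher and 4 lower, against 12.1% of all genes, 5.01% higher and 7.05% lower. The members' median log2 difference was -0.029 under PBS and -0.15 under anti-PD-1, where all genes had medians of 0.0051 and 0.0019; under anti-PD-1 38 of the 45 estimates were below 0. At 11.1% of members under either treatment, the share called was below that of all genes under PBS and close to it under anti-PD-1.

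Cdk1, the kinase that drives mitotic entry, had 21.8, 19.8 and 21.1 FPKM in KO PBS libraries and 26.8, 27.9 and 22.7 in WT PBS libraries. Under anti-PD-1 it had 22.1, 20.6 and 21.7 in KO and 28, 26.2 and 28.3 in WT. Every KO library lay below every WT library of its treatment. The log2 difference was -0.29 (SE 0.08, adjusted p = 0.0232) under PBS and -0.34 (SE 0.08, adjusted p = 0.0189) under anti-PD-1. Nuf2, a subunit of the NDC80 complex that ties kinetochores to microtubules, had 9.53, 11.2 and 9.89 FPKM in KO PBS and 13.2, 12.2 and 12.2 in WT PBS. It had 10.6, 9.69 and 9.97 in KO anti-PD-1 and 13.3, 12.8 and 12.7 in WT anti-PD-1, again without overlap. Its log2 difference was -0.27 (SE 0.07, adjusted p = 0.0177) under PBS and -0.33 (SE 0.07, adjusted p = 0.0131) under anti-PD-1. Cdk1 and Nuf2 were the 2 members that fell under both treatments, and Ncapg was the 1 that rose under both.

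The other calls were each made under 1 treatment. Mad2l1, a spindle checkpoint protein, had 12, 11 and 9.95 FPKM in KO PBS and 14.8, 13.3 and 12.4 in WT PBS, without overlap (log2 difference -0.28, SE 0.09, adjusted p = 0.048). Bub1, a checkpoint kinase, rose under PBS, with 34.1, 31.6 and 29.2 FPKM in KO and 26.9, 26.2 and 21.6 in WT (log2 difference 0.34, SE 0.10, adjusted p = 0.0346). Under anti-PD-1 Bub1 had 31.4, 26.6 and 29.8 in KO and 35, 29.7 and 32.4 in WT, and its groups overlapped. Ube2c, the E2 enzyme of the anaphase-promoting complex, fell under anti-PD-1, with 28.6, 27.4 and 29.2 FPKM in KO and 39.8, 38.1 and 35 in WT (log2 difference -0.39, SE 0.08, adjusted p = 0.00801). Under PBS it overlapped, at 31.8, 27.7 and 32.5 in KO and 31.5, 29.9 and 28.8 in WT. Cdc25b, another CDK1-activating phosphatase, fell under anti-PD-1, with 12.9, 11.6 and 13.5 FPKM in KO and 14.8, 16.6 and 15.9 in WT (log2 difference -0.29, SE 0.08, adjusted p = 0.0342). In these comparisons all KO libraries were on 1 side of the WT libraries, apart from the overlaps named.

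Averaged over treatments, 13 members passed in MC38, 1 higher and 12 lower, against 27.4% of all genes, 13.4% higher and 14% lower. The share called in total was alike, but all but 1 of the members' calls were lower, while those of all genes were split about evenly. The decreases were of Mybl2, Cdk1, Nuf2, Aurkb, Nusap1, Mad2l1, Cdc25b, Ccna2, Kif11, Tpx2, Ube2c and Ndc80, with log2 differences from -0.39 to -0.18. Mybl2, which encodes B-MYB, had 7.92, 7.19 and 8.52 FPKM in KO anti-PD-1 and 11.6, 14.1 and 8.54 in WT anti-PD-1, and 7.96, 7.03 and 7.65 in KO PBS against 11.1, 9.8 and 8.18 in WT PBS. The highest KO libraries lay just below the lowest WT libraries of each treatment, and the averaged log2 difference was -0.39 (SE 0.11, adjusted p = 0.0211). Aurkb, the kinase of the chromosomal passenger complex, averaged 10.3 ± 0.616 FPKM in KO anti-PD-1 and 13.5 ± 1.27 in WT anti-PD-1, and 11.8 ± 1.68 in KO PBS and 13.1 ± 1.33 in WT PBS (SD, n = 3 each). Its averaged log2 difference was -0.25 (SE 0.08, adjusted p = 0.0334), and its PBS groups overlapped.

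These MC38 calls were sensitive to single libraries. The counts that follow stand without the shares of all genes called in the same fits. A general change in calls therefore cannot be told apart from one of the members. The PBS comparison had 3 called members, all higher, when replicate 1 of the WT PBS group was left out, so Cdk1, Nuf2 and Mad2l1 were not called there. It had 2 when replicate 2 of WT PBS, replicate 2 of KO PBS or replicate 3 of KO PBS was left out. For the anti-PD-1 comparison the count was 2 with replicate 1 of the WT anti-PD-1 group left out, and 3 with replicate 2 or 3 of its KO group left out. The averaged comparison had 8 when replicate 2 of WT PBS or replicate 3 of KO PBS was dropped, 7 when replicate 2 of the KO anti-PD-1 group was, and 6 when replicate 2 of the KO PBS group was.

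**Figure D2:**
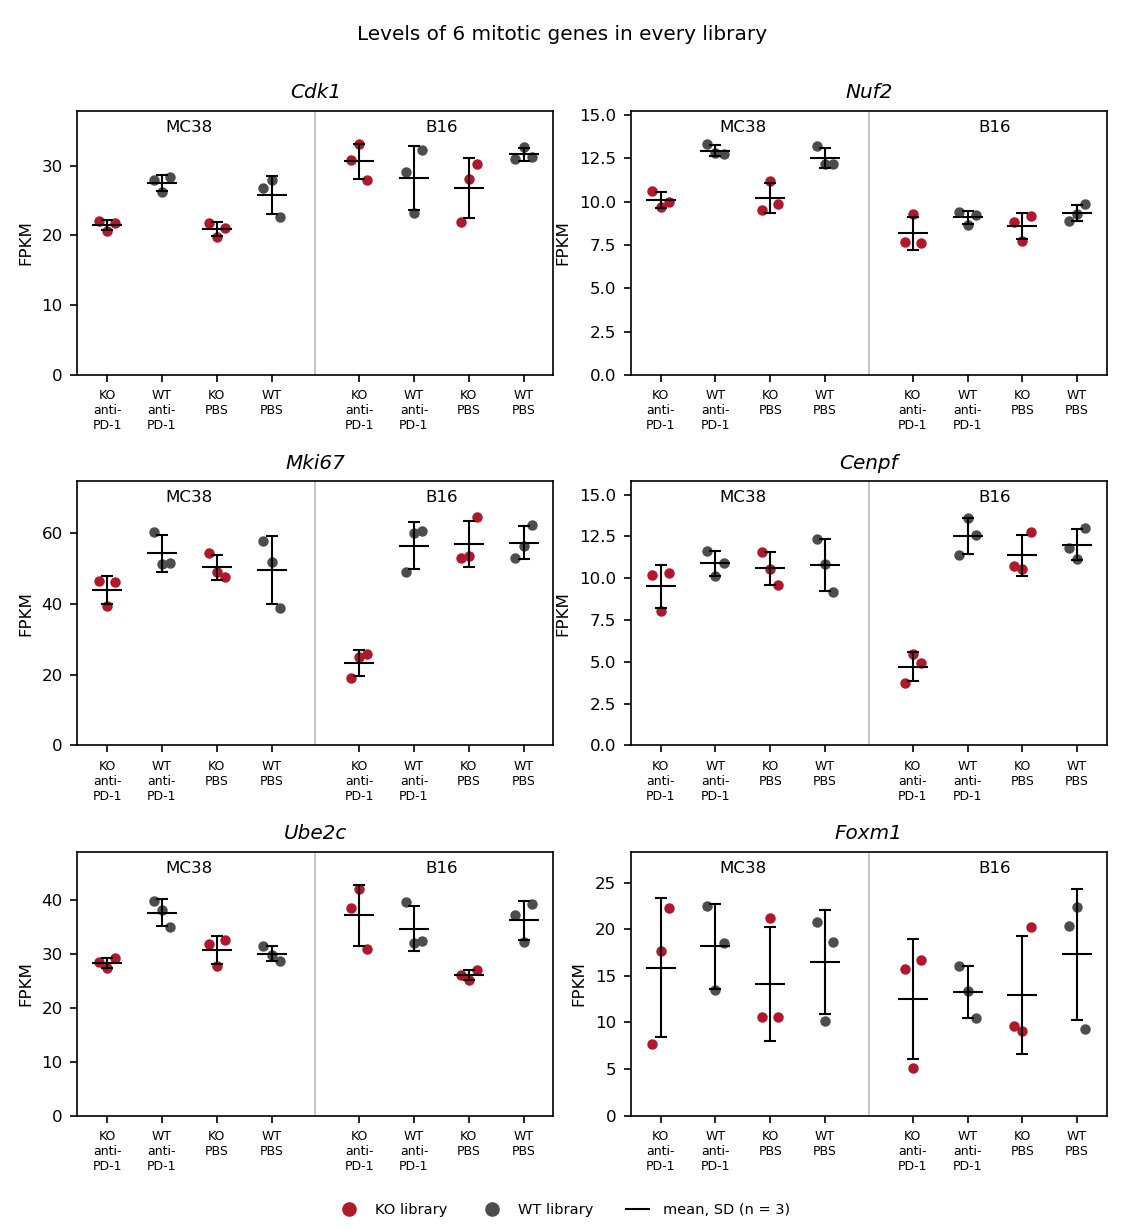
FPKM of Cdk1, Nuf2, Mki67, Cenpf, Ube2c and Foxm1 in every library, by group, with KO libraries in red, WT libraries in grey, and the mean and SD of 3 libraries in black. Cdk1 and Nuf2 lie lower in both MC38 KO groups, Mki67 and Cenpf lie lowest in B16 KO anti-PD-1 tumours, and Foxm1 scatters within each group.

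Ncapg, the gene of the NCAP-G subunit of condensin I, which compacts mitotic chromosomes, had the largest log2 difference of the 45 members in both KO against WT comparisons of MC38. It had 46.1, 55.1 and 40.3 FPKM in MC38 KO PBS libraries and 17.3, 13.4 and 11.5 in WT PBS libraries. Under anti-PD-1 it had 36.9, 28.7 and 38.2 in KO and 15.3, 14.6 and 14.9 in WT. All 6 KO libraries stood above all 6 WT libraries. The log2 difference was 1.68 (SE 0.15, adjusted p = 0.00011) under PBS and 1.15 (SE 0.15, adjusted p = 0.00138) under anti-PD-1. The other condensin members did not follow it: Ncaph averaged 11.6 ± 0.758 FPKM in KO PBS and 12.2 ± 0.965 in WT PBS, and Smc2 averaged 35.7 ± 3.27 in KO PBS and 36.9 ± 4.32 in WT PBS (SD, n = 3 each), with no call for either. In B16 Ncapg was 13.4, 13.8 and 15.1 FPKM in KO PBS and 13, 13.7 and 15.4 in WT PBS, which overlapped.

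Annotated neighbours of Ncapg (mm10 chr5:45669919-45700546, plus strand) moved with it in MC38; they were looked at after the Ncapg values were seen. Gm43366, an unnamed gene model upstream of Ncapg on the same strand (chr5:45660067-45662721), averaged 18.4 ± 3.4 FPKM in KO anti-PD-1 and 0.253 ± 0.112 in WT anti-PD-1, and 22.3 ± 3.18 in KO PBS and 1.47 ± 1.17 in WT PBS (SD, n = 3 each). 1600023N17Rik, an unnamed model just upstream on the opposite strand (chr5:45668702-45669708), averaged 8.99 ± 2.07 FPKM in KO PBS and 0.481 ± 0.216 in WT PBS. Downstream, Gm36401 (chr5:45702733-45704760) averaged 8.44 ± 2.46 FPKM in KO PBS and 1.97 ± 0.272 in WT PBS. Averaged over treatments, the log2 differences of these 3 models were 3.64, 2.60 and 1.51, and that of Lcorl, whose gene overlaps the end of Ncapg on the other strand, was 0.44 (adjusted p = 0.0414). Lap3 (-0.035, adjusted p = 0.739) and Med28 (-0.12, adjusted p = 0.493), farther upstream, were not called. Strand is not stated for the counting, so reads of overlapping genes cannot be told apart.

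**Figure D3:**
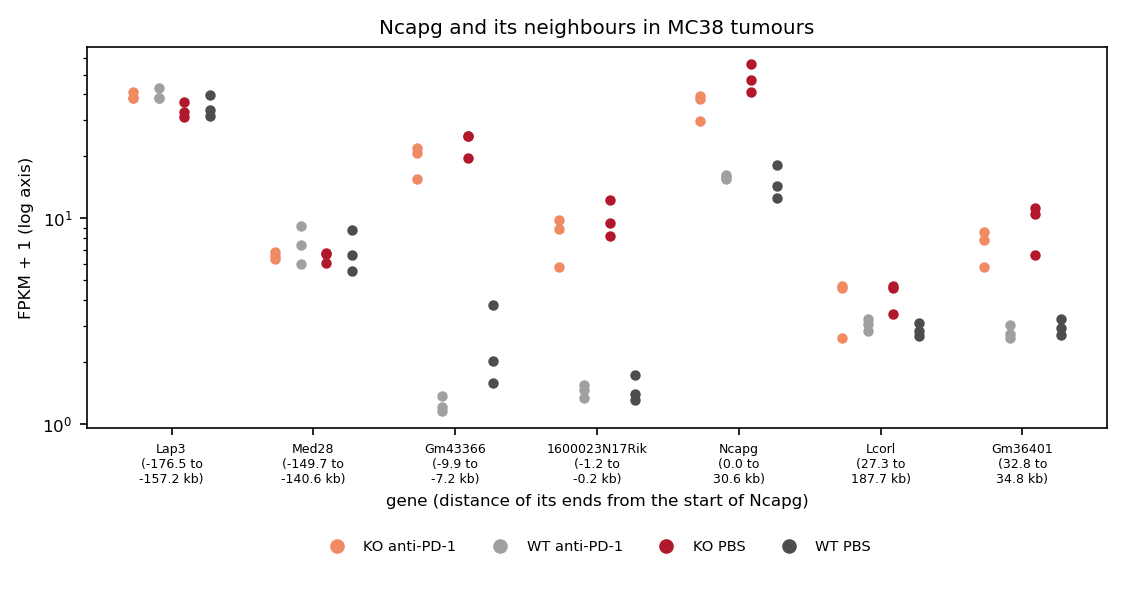
FPKM + 1 on a log axis in the 12 MC38 libraries (points) for Ncapg and its annotated neighbours, ordered by the distance of their ends from the Ncapg start in kb, with KO libraries in orange (anti-PD-1) and red (PBS) and WT libraries in greys. Gm43366, 1600023N17Rik, Ncapg and Gm36401 are higher in every KO library than in any WT library, while Lap3 and Med28 overlap.

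Anti-PD-1 alone moved few members in MC38. In KO tumours only Cdc25b was called, with 12.9, 11.6 and 13.5 FPKM under anti-PD-1 and 15.8, 15.1 and 17.2 under PBS (log2 difference -0.32, SE 0.08, adjusted p = 0.0302), against 8.99% of all genes, 6.12% higher and 2.86% lower. No member was called when replicate 1 or 3 of KO PBS, or replicate 1 or 2 of the KO anti-PD-1 group, was left out. In WT tumours limma called 0 of 45 members and 0% of all genes; 2 members had an unadjusted p under 0.05, and 35 of 45 estimates were above 0. The KO effect differed between treatments for 0 members (4 at an unadjusted p under 0.05), against 2.44% of all genes. Host cell markers differed between these groups. Over 14 T and NK cell markers the summed FPKM was 12.3 to 20.3 in KO PBS and 88.7 to 97.3 in WT PBS, but 74.7 to 111 in KO anti-PD-1 and 81.6 to 101 in WT anti-PD-1. Over 12 macrophage and monocyte markers it was 530 to 1321 in KO PBS and 1706 to 2004 in WT PBS, and 1826 to 2426 in KO anti-PD-1 and 1652 to 1885 in WT anti-PD-1. Over 12 fibroblast and pericyte markers it was 444 to 503 in KO PBS and 740 to 956 in WT PBS, and 408 to 948 in KO anti-PD-1 and 456 to 844 in WT anti-PD-1. The part of host cells in the members' values was not tested.

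In B16 tumours the picture depended on treatment. Under PBS limma called 0 of 45 members between KO and WT, against 0.47% of all 13627 genes tested; 5 had an unadjusted p under 0.05, 37 of 45 estimates were below 0, and the median log2 difference was -0.11, where all genes had -0.047. Ube2c had the smallest adjusted p of these, with 26.1, 25.1 and 27 FPKM in KO PBS and 37.3, 32.3 and 39.2 in WT PBS, without overlap (log2 difference -0.46, SE 0.12, adjusted p = 0.144). Under anti-PD-1 27 members passed, 3 higher and 24 lower, against 40.8% of all genes, 14.9% higher and 25.9% lower. The members' median log2 difference was -0.32, where all genes had -0.051. The libraries of KO and WT did not overlap for 29 members, 26 of them lower in KO, against 50.8% of all genes without overlap and 31.5% of all genes lower in KO. The values of these KO libraries also ran with transcript length across all genes, as given after the classes below. Each class therefore has its count after a correction for exon length and GC content beside it. The correction was chosen after seeing the data. The class counts are to be read against 14.9% of all genes higher and 25.9% lower. With the correction these shares were 11.4% and 14.9%. The classes are small, so a share in a class can rest on single genes.

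Without the correction, the largest decreases were of genes of chromosome structure, kinetochores and cytokinesis. Among them Cenpf and Mki67, at 15433 and 10061 exon bases, were the longest members. Cenpf, a large protein of the outer kinetochore and nuclear matrix, had 3.75, 5.46 and 4.9 FPKM in KO anti-PD-1 and 11.4, 13.6 and 12.6 in WT anti-PD-1. In PBS tumours it had 10.8, 10.5 and 12.8 in KO and 11.8, 11.2 and 13 in WT. The 3 KO anti-PD-1 libraries stood below the other 9 B16 libraries, which overlapped one another. Under anti-PD-1 the log2 difference of KO over WT was -1.26 (SE 0.12, adjusted p = 4.52e-05).

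Mki67, the antigen used to score proliferating cells and a coat of mitotic chromosomes, had 19.1, 24.9 and 25.9 FPKM in KO anti-PD-1 and 49, 60.1 and 60.5 in WT anti-PD-1. In PBS tumours it had 53.1, 53.4 and 64.5 in KO and 53.1, 56.5 and 62.3 in WT. The KO anti-PD-1 libraries again stood apart. The log2 difference of KO over WT under anti-PD-1 was -1.25 (SE 0.13, adjusted p = 6.38e-05).

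Top2a had 36, 41.6 and 41.3 FPKM in KO anti-PD-1 and 71.8, 75.8 and 79.8 in WT anti-PD-1, without overlap (log2 difference -0.92, SE 0.09, adjusted p = 4.17e-05). Smc2 had 11.4, 13.7 and 12.7 in KO anti-PD-1 and 20.5, 21.9 and 25.1 in WT anti-PD-1 (log2 difference -0.79, adjusted p = 0.000244). Both sets of KO libraries lay below all WT libraries. With Mki67 and Ncapg, 4 of the 5 chromosome structure genes fell, and Ncaph did not pass (log2 difference -0.12, adjusted p = 0.29). With the correction 3 of the 5 fell, and Ncapg lost its call.

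Of the 5 kinetochore genes, 3 fell. Cenpe, the kinesin that moves chromosomes to the spindle equator, had 5.15, 6.52 and 5.93 FPKM in KO anti-PD-1 and 12, 14.7 and 14.4 in WT anti-PD-1 (log2 difference -1.10, SE 0.12, adjusted p = 8.25e-05). Ndc80 fell by less, with a log2 difference of -0.34, and Nuf2, its partner in the same complex, did not pass (-0.14, adjusted p = 0.248). Cenpa had 10.6 ± 0.554 FPKM in KO anti-PD-1 and 12.7 ± 1.62 in WT anti-PD-1 and was not called. With the correction 2 fell (Cenpe and Cenpf), Nuf2 rose and Ndc80 lost its call.

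All 6 cytokinesis genes fell, and 3 of the 6 with the correction, where Ect2, Kif23 and Prc1 lost their calls. Kif20b, a kinesin of the midbody, had 4.88, 6.19 and 5.66 FPKM in KO anti-PD-1 and 11.5, 13.1 and 14.6 in WT anti-PD-1 (log2 difference -1.10, SE 0.11, adjusted p = 5.12e-05). Anln had 9.21, 11.2 and 11 in KO anti-PD-1 and 20.2, 20.8 and 20.6 in WT anti-PD-1 (log2 difference -0.91, SE 0.09, adjusted p = 5.57e-05). Every KO value of both genes was below every WT value. Ect2, the exchange factor that activates RhoA at the cleavage furrow, averaged 11.4 ± 1.5 FPKM in KO anti-PD-1 and 19.2 ± 2.24 in WT anti-PD-1. Kif23, a subunit of centralspindlin, averaged 7.06 ± 0.954 in KO anti-PD-1 and 10.8 ± 0.785 in WT anti-PD-1. Prc1, the microtubule bundler of the central spindle, and Kif20a, a kinesin that acts there, had log2 differences of -0.54 and -0.44.

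Among 7 spindle genes 5 fell. With the correction 3 did, since Nusap1, Dlgap5 and Tpx2 lost their calls and Kif18b gained one. Hmmr, a spindle pole protein, averaged 6.85 ± 0.363 FPKM in KO anti-PD-1 and 13.1 ± 1.48 in WT anti-PD-1, and Kif11, the motor that separates spindle poles, averaged 12.2 ± 1.41 in KO anti-PD-1 and 21.2 ± 0.443 in WT anti-PD-1. Their log2 differences were -0.84 and -0.76. Nusap1, Dlgap5 and Tpx2, which stabilise or nucleate spindle microtubules, had log2 differences from -0.37 to -0.28. The kinesins Kif2c (-0.10) and Kif18b (-0.24) were not called.

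Of the 5 spindle checkpoint genes, 3 fell and 1 rose. With the correction 1 fell (Bub1) and 2 rose (Bub3 and Mad2l1), and Bub1b and Ttk lost their calls. Bub1 had 15.2, 20 and 16.8 FPKM in KO anti-PD-1 and 31.3, 27.6 and 29.7 in WT anti-PD-1 (log2 difference -0.74, SE 0.11, adjusted p = 0.000471). Bub1b (BUBR1) and Ttk (the kinase MPS1) had log2 differences of -0.39 and -0.53, and Mad2l1 was not called (-0.10). Bub3, the small adaptor that carries BUB1 and BUBR1 to kinetochores, had 21.1, 23.4 and 20 FPKM in KO anti-PD-1 and 16.8, 17.8 and 19 in WT anti-PD-1, without overlap (log2 difference 0.25, SE 0.08, adjusted p = 0.0243). Its PBS libraries had 19.6, 18.4 and 19.3 in KO and 18.3, 19.7 and 18.4 in WT. The Bub3 call was lost when replicate 1 or 2 of the WT group, or replicate 2 of the KO group, was left out (adjusted p up to 0.0855).

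The cyclins and kinases of mitotic entry moved less evenly. Ccnb1 (cyclin B1) had 14.1, 20.3 and 14.8 FPKM in KO anti-PD-1 and 26.8, 27.3 and 31.6 in WT anti-PD-1, without overlap (log2 difference -0.78, SE 0.12, adjusted p = 0.000603). Its partner Cdk1 had 30.8, 33.1 and 28 in KO anti-PD-1 and 29.1, 23.2 and 32.2 in WT anti-PD-1, and the groups overlapped (log2 difference 0.12, adjusted p = 0.474). Ccna2 (cyclin A2) fell with a log2 difference of -0.33 (adjusted p = 0.0417), and Ccnb2 did not pass (-0.14).

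Plk1, the polo-like kinase, had 29.3, 28.5 and 27.6 FPKM in KO anti-PD-1 and 26.1, 27.9 and 28.3 in WT anti-PD-1 and was not called (log2 difference 0.052). Cdc25c had 4.47, 4.61 and 4.36 in KO anti-PD-1 and 6.62, 5.17 and 4.3 in WT anti-PD-1, with overlap (log2 difference -0.20, adjusted p = 0.249). Of the 8 genes of mitotic entry, 2 fell, a share close to the 25.9% of all genes called lower, and none rose. With the correction 5 fell, with Ccna2 lost and Ccnb2, Cdc25b, Plk1 and Aurka gained. In the anaphase class of 3 genes, Cdc20, the activator of the anaphase-promoting complex, rose, with 38.6, 42.5 and 39.4 FPKM in KO anti-PD-1 and 29.8, 32.9 and 35.1 in WT anti-PD-1 (log2 difference 0.29, SE 0.09, adjusted p = 0.0196). Espl1 (separase) fell (-0.36), and Ube2c was not called, at 38.5, 42.1 and 31 in KO anti-PD-1 and 39.6, 32.1 and 32.5 in WT anti-PD-1. With the correction none of the 3 was called. The Cdc20 call was also lost when replicate 1 of the WT group or replicate 2 of the KO group was left out (adjusted p up to 0.0688).

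Of the 4 passenger complex genes, Cdca8 (borealin) rose, with 11.1, 11 and 11.2 FPKM in KO anti-PD-1 and 8.92, 7.81 and 8.63 in WT anti-PD-1 (log2 difference 0.36, SE 0.08, adjusted p = 0.00594). Birc5 (survivin) had 31.3, 38 and 30.7 in KO anti-PD-1 and 31, 26.8 and 27.9 in WT anti-PD-1, with a slight overlap and no call (log2 difference 0.21, adjusted p = 0.107). Aurkb (-0.025) and Incenp (-0.027), the kinase and its scaffold, were not called. With the correction Cdca8 rose and Aurkb fell. The transcription factors were not called either: Mybl2 had 5.79, 5.11 and 3.92 FPKM in KO anti-PD-1 and 4.98, 4.64 and 5.98 in WT anti-PD-1.

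Foxm1, the forkhead factor of the programme, scattered within groups and was called in no comparison. In B16 it had 15.7, 5.13 and 16.6 FPKM in KO anti-PD-1, 16.1, 13.3 and 10.5 in WT anti-PD-1, 9.58, 9.08 and 20.3 in KO PBS and 20.3, 22.3 and 9.3 in WT PBS. In MC38 it had 7.73, 17.6 and 22.3 in KO anti-PD-1, 22.5, 13.5 and 18.5 in WT anti-PD-1, 10.6, 21.2 and 10.6 in KO PBS and 20.7, 10.2 and 18.6 in WT PBS. The highest library of a group was 1.53 to 3.25 times its lowest, median 2.13 over the 8 groups. For the other 44 members this ratio, as the median over groups, was 1.16 for the middle member, and none exceeded 1.69 in any group.

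**Figure D4:**
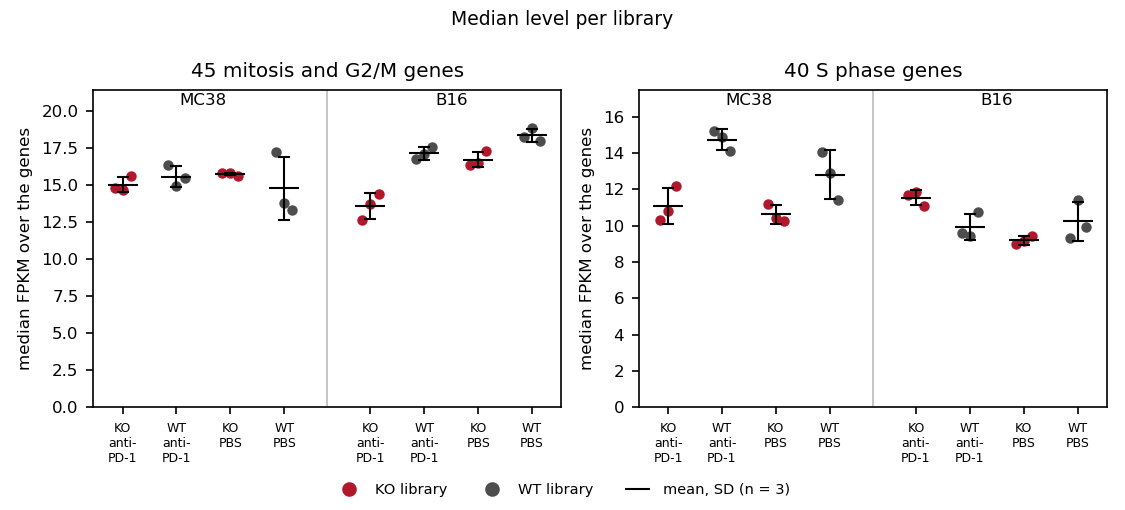
Median FPKM over the 45 members (left) and over 40 S phase genes (right) in each of the 24 libraries, by group, with KO in red, WT in grey and the mean and SD of 3 libraries in black. On the left the B16 KO anti-PD-1 libraries averaged 13.6 and lie below the other B16 groups, which averaged 16.7 to 18.4, while the MC38 groups averaged 14.8 to 15.8. On the right the same libraries had S phase medians of 11.7, 11.8 and 11.1, above those of B16 WT anti-PD-1 at 9.61, 9.42 and 10.7. The B16 WT PBS libraries, at 9.34, 11.4 and 9.93, overlapped them. A median of levels is not the median of the differences of single genes, which is given below for the S phase genes. Values of the KO anti-PD-1 libraries also ran with transcript length.

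Set against KO tumours given PBS, the same 3 B16 KO anti-PD-1 libraries had 22 members called, 4 higher and 18 lower, against 43.9% of all genes, 18.9% higher and 25% lower. With medians set equal, 7 were higher and 15 lower, against 3292 higher and 2750 lower of 13627 genes. Over protein-coding genes alone the members had 0 and 28, against 1133 higher and 3954 lower of 11149 genes. With the length and GC correction 19 were called, 3 higher and 16 lower, against 1804 higher and 2224 lower of 13619 genes. Of the 22 called before, 13 were called again. This comparison shares those libraries with the one above, so the values are given side by side and not as a second observation. Mki67 had a log2 difference of -1.26 (SE 0.13, adjusted p = 7.18e-05), Cenpf of -1.12 (SE 0.12, adjusted p = 9.37e-05), Cenpe of -1.02 (SE 0.12, adjusted p = 0.000136) and Smc2 of -1.02 (SE 0.10, adjusted p = 6.45e-05). With the length and GC correction these stood at -0.84 for Mki67, -0.46 for Cenpf, -0.59 for Cenpe and -0.67 for Smc2, all still called. Smc2 had 24.2, 26.7 and 28.7 FPKM in KO PBS, above its WT PBS libraries at 20.2, 24 and 21.9. In WT tumours anti-PD-1 against PBS gave 0 calls among members and 0% of all genes, and 0 members had an unadjusted p under 0.05.

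The 4 higher members were Ube2c, Birc5, Cdc20 and Plk1. Ube2c had 38.5, 42.1 and 31 FPKM in KO anti-PD-1 and 26.1, 25.1 and 27 in KO PBS (log2 difference 0.49, SE 0.12, adjusted p = 0.00861); its KO PBS libraries were the low ones among the 12. Birc5 had 31.3, 38 and 30.7 in KO anti-PD-1 and 25.6, 24.2 and 28.2 in KO PBS (log2 difference 0.34, SE 0.10, adjusted p = 0.0163), a call lost when replicate 2 of either group was left out (adjusted p up to 0.0602). Plk1 had 29.3, 28.5 and 27.6 in KO anti-PD-1 and 25.6, 24.9 and 24.4 in KO PBS (log2 difference 0.18, SE 0.07, adjusted p = 0.0478). Cdc20 had 38.6, 42.5 and 39.4 in KO anti-PD-1 and 34.6, 33.3 and 29 in KO PBS (log2 difference 0.31, adjusted p = 0.0144), and lost its call when replicate 3 of KO PBS was left out (adjusted p = 0.053). For none of the 4 did the groups overlap. The Plk1 call was lost in 10 of the fits that left out 1 library (adjusted p up to 0.122), and the Plk1 direction turned to -0.027 when FPKM were rescaled over protein-coding genes alone. With the length and GC correction none of the 4 was called higher. Ube2c stood at 0.12 (adjusted p = 0.556), Birc5 at 0.19 (adjusted p = 0.195), Cdc20 at -0.069 (adjusted p = 0.602) and Plk1 at -0.25, now called lower (adjusted p = 0.0165).

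The difference of the KO effects between treatments was tested directly. In B16 18 members passed, 3 higher and 15 lower under anti-PD-1 than under PBS, against 23.5% of all genes, 8.9% higher and 14.6% lower. When FPKM were rescaled over protein-coding genes, no members were higher and 18 lower, against 365 higher and 2445 lower of 11149 genes. With the length and GC correction 9 passed, 2 higher and 7 lower, against 1286 of 13619 genes, 491 higher and 795 lower. Ube2c, Cdc20 and Cdca8 lost their higher calls, and Bub1, Ccnb1, Ect2, Kif11, Kif23, Ncapg, Prc1 and Top2a lost their lower calls. Bub3 and Mad2l1 gained a call. The largest were Mki67 at -1.24 (SE 0.19, adjusted p = 0.0019) and Cenpf at -1.18 (SE 0.17, adjusted p = 0.00173), which stood at -0.82 (adjusted p = 0.00957) and -0.51 (adjusted p = 0.0427) with the correction, and Ube2c (0.55), Cdc20 (0.41) and Cdca8 (0.37) were the higher ones. Averaged over treatments 23 members were lower in KO and none higher, against 26.5% of all genes, 7.54% higher and 19% lower. With medians set equal, 2 members were higher and 11 lower, against 1726 higher and 1536 lower of 13627 genes. With the length and GC correction the members had 2 and 13, against 952 higher and 1285 lower of 13619 genes. Cenpf (-0.67), Mki67 (-0.63), Kif20b (-0.62) and Cenpe (-0.55) led, with adjusted p from 0.000483 to 0.00133, which rest on the same anti-PD-1 libraries.

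Those 3 libraries differed from the rest in a way tied to transcript length. For KO over WT under anti-PD-1 the correlation of the log2 difference with log10 exon length was -0.57 across 11149 protein-coding genes and -0.61 across the 45 members, and with GC content 0.35 and 0.63. Genes are not independent replicates, and these are descriptions. With genes in 5 equal classes by length, from the shortest to the longest, the median log2 difference was 0.37, 0.14, -0.034, -0.21 and -0.44, and that of the members was 0.052 (n = 3), -0.025 (n = 5), -0.24 (n = 16), -0.45 (n = 12) and -0.91 (n = 9). The members' exon length ran from 1531 to 15433 bases, median 4934, against a median of 4427 for all protein-coding genes tested. For KO over WT under PBS in B16 the correlation with length was 0.052 across all genes and 0.37 across the members, and that with GC content -0.052 and -0.49. For KO over WT under anti-PD-1 in MC38 the correlation with length was -0.0044 and 0.18, and that with GC content -0.00065 and -0.40. In other MC38 comparisons the correlation with length across all genes was 0.14 (KO over WT under PBS) and -0.17 (anti-PD-1 against PBS in KO).

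**Figure D5:**
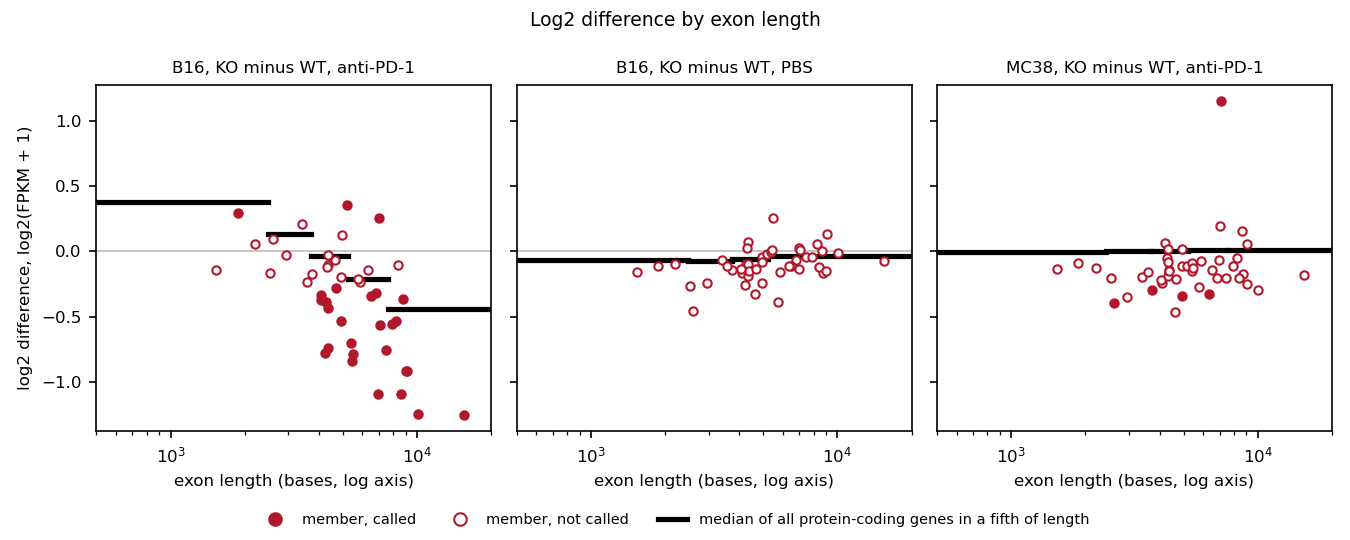
Log2 difference on log2(FPKM + 1) of the 45 members against exon length in bases on a log axis, filled where called, with black bars at the median of all protein-coding genes in each of 5 length classes, for KO over WT under anti-PD-1 in B16, under PBS in B16 and under anti-PD-1 in MC38. In the first panel the bars run from 0.37 in the shortest to -0.44 in the longest class, with Mki67 and Cenpf at the lower right, and in the other panels they lie close to 0.

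With the trend on length and GC removed within each library, an alternative chosen after seeing the data, 22 members were called under anti-PD-1, 4 higher and 18 lower, against 26.3% of all genes, 11.4% higher and 14.9% lower. Of the 27 members called before, 14 were called again; 13 were lost, and 8 were gained. The corrected log2 difference was -0.80 for Mki67 (adjusted p = 0.000534), -0.63 for Cenpe (adjusted p = 0.0013), -0.60 for Kif20b (adjusted p = 0.000657) and -0.56 for Cenpf (adjusted p = 0.00227). It was -0.59 for Ccnb1 (adjusted p = 0.00463), a gene of mitotic entry, and -0.39 for Top2a (adjusted p = 0.00236). It was 0.50 for Bub3 (adjusted p = 0.00132) and 0.43 for Cdca8 (adjusted p = 0.00612), but -0.027 for Cdc20 (adjusted p = 0.848). Over all alternatives Mki67 ran from -1.49 to -0.80 and Cenpf from -1.46 to -0.56, and both were called in 22 of 22. Scaled over protein-coding genes alone, the median of all genes moved to -0.23 and that of the members to -0.53, with 0 members higher and 36 lower against 45.5% of genes, 5.65% higher and 39.9% lower; Bub3 (0.017), Cdc20 (0.052) and Cdca8 (0.13) were then not called. With medians set equal, 4 were higher and 17 lower, against 41.4% of all genes, 23% higher and 18.4% lower.

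Some host tissue markers also differed in these libraries. T and NK markers summed to 14.9 to 68 FPKM in B16 KO anti-PD-1 and 0.93 to 17.8 in WT anti-PD-1. Macrophage and monocyte markers summed to 513 to 1349 in KO anti-PD-1 and 112 to 563 in WT anti-PD-1, and 11 muscle and fat markers to 26.8 to 1758 in KO anti-PD-1 and 10.9 to 21.4 in WT anti-PD-1. Endothelial markers summed to 35.4 to 72.7 in KO anti-PD-1 and 21.8 to 34.3 in WT anti-PD-1, and erythroid markers to 1015 to 15559 in KO anti-PD-1 and 334 to 2568 in WT anti-PD-1. Fibroblast and pericyte markers summed to 82.8 to 410 in KO anti-PD-1 and 34.2 to 171 in WT anti-PD-1. The ranges of muscle and fat and of endothelial markers did not overlap, and those of T and NK, macrophage, erythroid and fibroblast markers did. Of those tested, 4 of 6 T and NK markers, 4 of 12 macrophage markers, 5 of 7 muscle and fat markers, 2 of 9 endothelial markers, 1 of 10 fibroblast markers and 0 of 5 erythroid markers were called higher, and none of these lower. Of all genes tested in this comparison, 14.9% were called higher and 25.9% lower. The fibroblast and erythroid shares lay below that of all genes called higher. Melanocyte markers summed to 5136 to 6592 FPKM in KO anti-PD-1 and 5634 to 6324 in WT anti-PD-1. The part of host tissue in the members' values was not tested.

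The KO effect, averaged over treatments, differed between lines for 13 members, 12 higher and 1 lower in MC38 than in B16, against 31.3% of 15655 genes, 19.7% higher and 11.6% lower. With medians set equal the split was 9 and 3, against 2123 higher and 2660 lower of 15655 genes. With the length and GC correction it was 5 and 3, against 2184 higher and 1912 lower of 15643 genes. Ncapg led with a difference of 1.69 (SE 0.13, adjusted p = 3.63e-08), made of 1.42 in MC38 and -0.28 in B16. Cenpe followed with 0.76 (SE 0.13, adjusted p = 0.000262), made of 0.21 in MC38 and -0.55 in B16. The lower one was Birc5 (-0.25, adjusted p = 0.0452), whose call was lost in 15 of the fits that left out 1 library. With PBS libraries alone, a choice made after seeing the data, 2 members differed between lines, against 9.46% of genes.

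Genes around the set were counted from other lists, to be read against 13.4% of all genes higher and 14% lower in MC38 KO averaged over treatments, and 14.9% higher and 25.9% lower in B16 KO under anti-PD-1. The counts and differences of all these lists are without the length and GC correction. In B16 KO anti-PD-1 libraries they carry the trend on transcript length described above. Of 67 other mitotic and G2/M genes tested in MC38, 2 were higher and 20 lower in KO averaged over treatments (median log2 difference -0.068), led by Cenpm (-0.55) and Oip5 (-0.53), a centromere protein and a factor that loads the centromeric histone. In B16 KO over WT under anti-PD-1, 6 of 68 were higher and 28 lower (median -0.20), led by Aspm (-1.19) and Ckap5 (-1.17), spindle pole and microtubule proteins. Of 16 subunits and partners of the anaphase-promoting complex, 0 were higher and 6 lower in MC38 KO averaged over treatments, Cdc16 most (-0.46), and 5 were higher and 4 lower in B16 KO under anti-PD-1, the lower ones at a share close to that of all genes, with Cdc27 at -0.89 and Anapc1 at -0.82. Of the DREAM and MuvB core, 0 of 11 were higher and 2 lower in MC38, Rbl1 (p107) at -0.44 and Rbl2 (p130) at -0.42, and 1 of 12 was higher and 8 lower in B16 KO under anti-PD-1.

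Of 40 replication genes of S phase, 3 were higher and 15 lower in MC38 KO averaged over treatments (median -0.14), with Gins1 at -0.75 and E2f1 at -0.72. E2f1, a driver of S phase entry, averaged 11.2 ± 1.08 FPKM in KO anti-PD-1 and 19.4 ± 0.49 in WT anti-PD-1, and 11.8 ± 0.993 in KO PBS and 19.8 ± 1.86 in WT PBS. In B16 KO under anti-PD-1 3 of the 40 S phase genes were higher and 8 lower (median -0.017), below the shares of all genes in both directions. Of 15 genes that hold back G2 or respond to damage, 4 were higher and 2 lower in MC38 KO averaged over treatments, and 5 were higher and 6 lower in B16 KO under anti-PD-1. Cdkn1a (p21) averaged 26.5 ± 4.56 FPKM in MC38 KO anti-PD-1 and 14.5 ± 1.84 in WT anti-PD-1, and 72.8 ± 8.59 in B16 KO anti-PD-1 and 43.1 ± 8.42 in WT anti-PD-1 (SD, n = 3 each), with adjusted p = 0.00343 in MC38 and 0.0013 in B16. Under PBS Cdkn1a averaged 26.5 in MC38 KO and 10 in WT (log2 difference 1.32, adjusted p = 0.000161). In B16 PBS tumours it averaged 67.1 in KO and 45 in WT (0.57, adjusted p = 0.103, not called). The PBS groups did not overlap in either line. Chek1, the kinase of the replication checkpoint, averaged 3.89 ± 0.753 FPKM in B16 KO anti-PD-1 and 8.01 ± 1.04 in WT anti-PD-1 (log2 difference -0.89), and Wee1, which holds CDK1 inactive, averaged 7.42 ± 0.32 in KO anti-PD-1 and 9.86 ± 1.11 in WT anti-PD-1 (-0.36, adjusted p = 0.0102). Of the G1 cyclins and inhibitors, 3 of 12 were higher and 2 lower in MC38 averaged over treatments, with Ccnd2 at 0.98 and Cdkn2b at 0.55, and 3 of 9 were higher and 0 lower in B16 KO under anti-PD-1.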

How the data were processed

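Bulk RNA of tumours was sequenced in 24 libraries, 3 in each of 8 groups named by the labels. The authors deposited 1 normalized value per gene and library, taken here as FPKM because the submitters' processing notes name Cuffnorm, whose output this is; the notes also name FastQC, STAR 2.5, DESeq and the mm10 build, and strand and annotation are not given in the sources used here. Of 55335 gene IDs, 55154 matched the mm10 annotation. Low FPKM values fell on steps of 1 fragment too rarely to recover whole counts (16.3% to 23.5% within 0.02), so no count test was run.

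Genes that reached 1 FPKM in 3 or more of a line's 12 libraries were kept, 14209 in MC38 and 13627 in B16. On log2(FPKM + 1), which understates changes of low genes, limma 3.58.1 in R 4.3.3 was fitted per line with 1 mean per group and a variance trend, and p-values were adjusted by Benjamini-Hochberg over all genes of the fit; genes with an adjusted p under 0.05 are called. The difference between lines was fitted over all 24 libraries on 15655 genes. The fit was tested on simulated data.

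Alternatives were a pseudocount of 0.1, no filter, a filter at 5 FPKM, quantile normalization, rescaling over protein-coding genes or to equal medians, no variance trend, fits on fewer or all libraries, and leaving out each library. A correction for exon length and GC content (a spline per library, 5 degrees of freedom) and a line difference on PBS libraries alone were added after seeing the data. The members and the lists of related genes and markers were chosen with earlier results of these data known. Library values are given for Ccnb1, Cdk1, Plk1, Mki67, Top2a, Foxm1, Mybl2, Cdc25c, Bub3 and Birc5, for up to 4 called members with the largest difference per direction and comparison, and for up to 2 with the largest interaction or line difference; other lists name up to 2 called genes per comparison, plus Chek2, Chek1, Wee1, Cdkn1a, E2f1 and Mcm2. Neighbours of Ncapg were chosen after values were seen. In 18 members the gene overlaps another annotated gene, 15 of them on the opposite strand, among them Ncapg, Ube2c, Cdc20, Nusap1, Bub3, Cdc25b, Prc1 and Ccna2, and their values may include reads of the partner.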

Additional observations from a re-analysis of the deposited data

Results flagged for a closer look

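In B16 the effect of Chek2 KO differed between anti-PD-1 and PBS tumours for 18 of the 45 members by limma's test of the interaction, with Mki67 at -1.24 and Cenpf at -1.18 on the log2 scale, against 23.5% of all genes. With the length and GC correction 9 members passed, against 1286 of 13619 genes, with Mki67 at -0.82 and Cenpf at -0.51. The KO effect averaged over treatments differed between MC38 and B16 for 13 members, a share close to the 31.3% of all genes. Ncapg stood at 1.69 and Cenpe at 0.76. With that correction 8 members passed, against 4096 of 15643 genes. Groups of 3 libraries were too small for a check of single outlying samples.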

How the results depend on the processing

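No paired analysis was possible because the labels give no numbers that pair libraries across groups. Counts of called members that moved by over 1.5 times were as follows. With no filter, MC38 KO against WT under PBS gave 3 in place of 5, MC38 averaged over treatments 8 in place of 13, and MC38 anti-PD-1 against PBS in KO 0 in place of 1. Over protein-coding genes alone these were 3 and 8 for the first pair, B16 averaged gave 37 in place of 23, and the line difference 22 in place of 13. Among all genes 3081 and 3359 of 11595, 4323 of 11149 and 4836 of 12384 were called there, in that order. With equal medians B16 averaged gave 13, against 3262 of 13627 genes. With the length and GC correction, MC38 KO against WT under anti-PD-1 gave 8 in place of 5, the MC38 interaction 2 in place of 0, B16 averaged 15, the B16 interaction 9 in place of 18 and the line difference 8. Among all genes that correction called 1845 of 14200, 468 of 14200, 2237 of 13619, 1286 of 13619 and 4096 of 15643, in that order. Fits on the groups compared alone gave 1 under PBS in MC38 and 0 for anti-PD-1 against PBS in KO, and 1 fit over all 24 libraries gave 2 for the last and 1 in place of 0 for B16 under PBS. The columns of 2 MC38 WT anti-PD-1 libraries carry no sample code; with the third alone the counts were 1 under anti-PD-1, 7 averaged and 8 for the line difference, which was 2 on PBS libraries. Leaving out 1 library gave, in MC38, 2 to 6 under PBS, 2 to 7 under anti-PD-1, 0 to 1 for anti-PD-1 in KO, 0 in WT, 6 to 15 averaged and 0 for the interaction. In B16 it gave 0 under PBS, 21 to 27 under anti-PD-1, 18 to 23 for anti-PD-1 in KO, 0 in WT, 16 to 23 averaged and 13 to 17 for the interaction, and 11 to 17 for the line difference. Directions turned for Cdc20 (-0.027) and Plk1 (-0.32) in B16 KO against WT under anti-PD-1 and for Cdc20 (-0.069) and Plk1 (-0.25) in anti-PD-1 against PBS in KO with the length and GC correction, and for Plk1 (-0.027) in that comparison over protein-coding genes. The causes were not tested. Shares of all genes called are not given for the fits with no filter, on the groups compared alone or with libraries left out. The same holds for the comparisons within 1 line fitted over all 24 libraries. Changes of those counts therefore cannot be set against changes over all genes. No counts were recovered, so the counting error of low members such as Cdc25c is unknown.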
